A study of Mus musculus with 3 samples.

Results

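Posterior and anterior Hox spots were 2 sets of capture spots from a single E12.5 section of mouse embryonic axial skeleton, chosen by the Hox genes they contained. A spot entered the posterior set with at least 3 summed unique molecular identifiers (UMIs, each standing for 1 captured RNA molecule) of Hoxa10, Hoxc10 and Hoxd10. It entered the anterior set with 0 UMIs of those genes and at least 3 summed UMIs of Hoxa5, Hoxb5 and Hoxc5. Among the 998 spots of the section with at least 5000 UMIs, 399 were posterior and 315 anterior, 714 in all, out of 3942 spots in the 3 sections of the series. The 6 scoring genes differ between the sets because they chose them, and their values are no finding.

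The series held 1 section of each stage (E11.5, E12.5, E13.5), profiled with 10x Visium, in which a 10 µm cryosection is laid on an array of barcoded spots 55 µm across and 100 µm from centre to centre. The labels called the tissue bone and the cells axial skeleton, and gave no strain, genotype, sex or treatment. Only the titles separated the stages, and the E11.5 title also held a word, zhengpei, that the titles of E12.5 and E13.5 lacked. Each stage is therefore 1 sample, a spot can hold several cells of different types, and fewer cells of a type in a spot cannot be told apart from less RNA per cell. The counts are of whole sections, so the sets take in every tissue present and not skeleton alone.

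Hox genes encode homeodomain transcription factors that lie in 4 clusters, Hoxa to Hoxd. Genes at the 3′ end of a cluster, with low paralogue numbers, are switched on early and far forward in the embryo, and genes at the 5′ end later and nearer the tail, so that each level of the trunk carries its own combination. In the vertebral column these combinations give vertebrae their neck, rib-bearing, lumbar or sacral form, and the 10-group genes are known in mouse for suppressing ribs.

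Hoxd9, Hoxd11 and Hoxa11, which separated the sets by over 20-fold without having chosen them, had promoter windows in RefSeq (GRCm38.p6, the same assembly as mm10), and these are shown because their genes neighbour the scoring genes Hoxd10 and Hoxa10 on the chromosome. Of 6 genes looked up, 4 had an entry, the other being the noncoding gene Hoxa11os, and Hoxc11 and Pitx1 had none. Each run is the 250 bases before a RefSeq transcription start, 5′ to 3′ on the strand of the gene. Capitals mark TTTATG or TTTACG on either strand, hexamers that contain the TTTAT and TTTAC cores bound in vitro by posterior Hox proteins. The windows are chr2:74697513-74697762 (+) for Hoxd9, chr2:74679308-74679557 (+) and chr2:74682073-74682322 (+) for the first and second start of Hoxd11, and chr6:52245811-52246060 (-) for Hoxa11.
Hoxd9: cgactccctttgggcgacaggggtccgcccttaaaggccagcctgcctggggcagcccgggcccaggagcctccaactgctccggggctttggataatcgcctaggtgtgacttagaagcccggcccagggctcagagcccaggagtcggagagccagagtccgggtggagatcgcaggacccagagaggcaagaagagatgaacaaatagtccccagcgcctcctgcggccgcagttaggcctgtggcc
Hoxd11 first start: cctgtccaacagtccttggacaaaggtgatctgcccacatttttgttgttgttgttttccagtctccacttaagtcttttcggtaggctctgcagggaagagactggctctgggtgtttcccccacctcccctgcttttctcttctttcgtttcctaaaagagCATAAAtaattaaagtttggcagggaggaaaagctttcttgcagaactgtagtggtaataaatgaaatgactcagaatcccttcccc
Hoxd11 second start: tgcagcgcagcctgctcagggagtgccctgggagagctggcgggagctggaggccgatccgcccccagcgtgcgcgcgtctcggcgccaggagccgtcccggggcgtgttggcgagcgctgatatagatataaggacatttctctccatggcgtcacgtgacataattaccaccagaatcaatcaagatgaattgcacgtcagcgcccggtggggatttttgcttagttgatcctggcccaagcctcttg
Hoxa11: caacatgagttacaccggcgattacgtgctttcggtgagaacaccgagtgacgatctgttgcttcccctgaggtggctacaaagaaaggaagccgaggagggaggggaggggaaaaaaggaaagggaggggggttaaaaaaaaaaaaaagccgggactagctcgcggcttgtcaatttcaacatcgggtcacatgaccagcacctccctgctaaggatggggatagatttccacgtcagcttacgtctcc
The only match in these 4 windows was TTTATG on the reverse strand in the first Hoxd11 window, beginning 87 bases before the start. Of all 32851 RefSeq windows of this length, 13.1% held either hexamer. The search covered these letters and this window only.

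Positions matter for reading the counts. In RefSeq the span of Hoxd11 (chr2:74679558-74687016) overlaps that of the scoring gene Hoxd10 (chr2:74684273-74695106), whereas Hoxd9 (chr2:74697763-74700208) overlaps neither. Hoxa11 (chr6:52242105-52245810) and Hoxa11os (chr6:52245243-52249769) overlap head to head on opposite strands, and the strand setting of the authors' counting is not given in the sources used here. How the counting shared reads between such neighbours was not tested.

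The sets had like depth. Posterior spots had a median of 25186 UMIs and anterior spots 25227, and the summed sets held 10434643 and 8246215 UMIs. Mitochondrial genes took 0.875% of UMIs in posterior and 1.37% in anterior spots, and globin genes 1.21% and 1.83%. The sections share barcodes, 434 between E11.5 and E12.5 and 696 between E12.5 and E13.5, since the array is printed with a fixed list of barcodes.

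The limits of the rule fell inside a continuous range of counts. The posterior set held 36 spots with just 3 UMIs of the 10-group genes, and 54 spots with 2 UMIs and 103 with 1 fell in neither set. The anterior set held 64 spots with 3 UMIs of the 5-group genes, against 53 spots with 2 that were left out. Just inside the posterior limit Hoxd9 stood at 14.1 counts per 1000000 UMIs of the set (CPM), and in spots with 2 and 1 UMIs at 13.7 and 7.77 CPM. Hoxc8 ran the other way, at 12.9, 37.8 and 76.6 CPM in the same spots. Most posterior spots had more than 1 of the scoring genes, with all 3 detected in 237 (59.4%), 2 in 138 and 1 in 24. Anterior scoring genes were not absent from the posterior set: 168 of its 399 spots also had at least 3 UMIs of Hoxa5, Hoxb5 and Hoxc5. As a description of the choice, the posterior set held 178 CPM of Hoxa10, 103 of Hoxc10 and 97 of Hoxd10, and the anterior set 0 of each. Hoxa5 stood at 59.7 CPM in posterior and 101 CPM in anterior spots, Hoxb5 at 17.9 and 55.3 CPM, and Hoxc5 at 12.7 and 109 CPM.

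The first question was how the 33 Hox genes that did not choose the spots were divided. With UMIs summed over each set and the ratio of CPM taken as posterior over anterior, 5 of the 33 were at least 2-fold higher in posterior spots and 14 at least 2-fold lower, counting genes with at least 50 UMIs over both sets. Over all 12705 genes with that many UMIs, 207 (1.63%) were at least 2-fold higher and 666 (5.24%) at least 2-fold lower, 6.87% in either direction. Of the 33, 26 had 50 UMIs, while Hoxa6, Hoxa13, Hoxb1, Hoxb13, Hoxc12, Hoxd12 and Hoxd13 had between 1 and 26. All 5 higher genes had paralogue numbers of 9 or above, and all 14 lower genes had numbers of 9 or below. Without 4 regions of the section led by genes of spinal cord and sensory neurons, 5 were higher, with Hoxa9 in place of Hoxc13. There 5 in place of 14 were lower: Hoxa7, Hoxc4, Hoxc6, Hoxc8 and Hoxd1. Over all 11993 genes with 50 UMIs in that setting, 149 were at least 2-fold higher and 250 at least 2-fold lower. One section gives no test of these ratios, and each interval is an exact 95% interval for counting error alone.

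**Figure D1:**
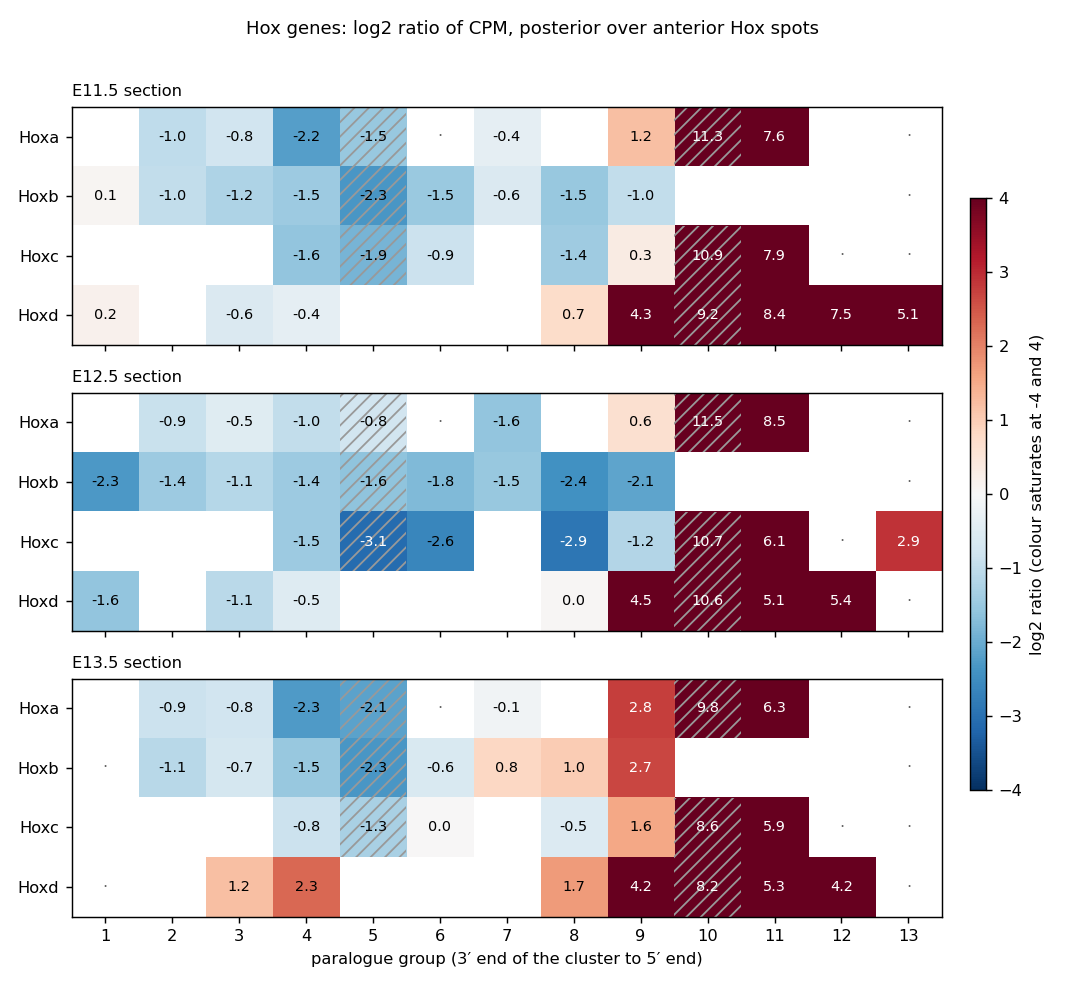
Each cell gives the log2 ratio of CPM, posterior over anterior Hox spots, for a Hox gene by cluster (rows) and paralogue group (columns) in sections of E11.5 (top), E12.5 (middle) and E13.5 (bottom) embryos. Hatched genes chose the spots, dots mark genes with under 20 UMIs, white cells are empty positions or not shown, and values with 0 UMIs on a side depend on the added 0.5 UMI; at E12.5 the log2 ratios drawn are below 0 for groups 1 to 4 and above 0 for groups 11 to 13.

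The 11-group genes, which pattern the sacral spine and the middle segment of the limb in mouse, were nearly confined to posterior spots at E12.5. Hoxa11 had 225 UMIs in posterior spots (21.6 CPM) and 0 in anterior spots, at least 59.3-fold higher when the anterior side is set at 3 UMIs. Hoxc11 stood at 20.1 CPM in posterior spots and 0.243 CPM in anterior spots, where 2 UMIs were seen, a ratio of 83.0 (interval 22.7 to 690). Hoxd11 stood at 34.3 CPM in posterior and 0.97 CPM in anterior spots, a ratio of 35.4 (17.8 to 82.5). All 3 members of the group were thus higher in posterior spots. Further 5′ the counts were small. Hoxc13 had 51 UMIs in posterior and 5 in anterior spots, a ratio of 8.06 (3.24 to 25.9), but 14 and 4 UMIs without the 4 neural regions, a ratio just under 2. Hoxd12 had 26 and 0 UMIs and Hoxd13 had 13 and 0 UMIs. The noncoding genes of the same stretch followed: Hoxa11os had 27.9 CPM in posterior and 0.364 CPM in anterior spots (ratio 76.7, 26 to 374), and Hotair, which lies between Hoxc11 and Hoxc12, had 40 and 1 UMIs (ratio 31.6, 5.36 to 1280).

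The 9-group did not move as one. Hoxd9 stood at 95.5 CPM in posterior spots and 4.24 CPM in anterior spots, a ratio of 22.5 (16.1 to 32.5). Hoxa9 was at 103 and 66.8 CPM (ratio 1.55, 1.39 to 1.72). Hoxb9 and Hoxc9 were lower in the posterior set, at 33.3 against 143 CPM (ratio 0.232, 0.206 to 0.262) and 52.4 against 118 CPM (ratio 0.445, 0.4 to 0.495). The 4 paralogues therefore spanned ratios on both sides of 1. Leaving out the 4 neural regions, a choice made after seeing the data, kept 355 posterior and 214 anterior spots. The Hoxb9 ratio was then 0.731, the Hoxc9 ratio 1.06 and the Hoxa9 ratio 3.43. The part of neural tissue in these values was not tested.

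Among paralogue groups 6 to 8, which pattern the thoracic trunk, 6 of the 7 genes with 50 UMIs were at least 2-fold lower in posterior spots. Hoxc8 was the lowest of them, with 120 UMIs in posterior and 713 UMIs in anterior spots (ratio 0.133, 0.109 to 0.162). Hoxc6 followed at 17.1 and 103 CPM (0.165, 0.14 to 0.194), and Hoxb8 at 32.3 and 172 CPM (0.188, 0.166 to 0.212). Hoxb6, Hoxa7 and Hoxb7 had ratios of 0.293, 0.337 and 0.350. Hoxd8 was the exception, at 25.7 and 25.1 CPM (ratio 1.02, 0.85 to 1.23). Without the 4 neural regions Hoxc8 and Hoxc6 stood at 0.133 and 0.146, while Hoxb8 was at 0.503, Hoxb6 at 0.668 and Hoxb7 at 0.745.

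The anterior-most groups were lower in posterior spots by less. Of 11 genes of groups 1 to 4 with 50 UMIs, 6 were at least 2-fold lower and 0 higher, with a median log2 ratio of -1.09, against 0.02 over all genes. Hoxd1 had a ratio of 0.326, Hoxc4 0.364, Hoxb4 0.365, Hoxb2 0.367, Hoxb3 0.455 and Hoxd3 0.468. Hoxa4, Hoxa2, Hoxd4 and Hoxa3 lay between 0.501 and 0.709. Of 8 noncoding genes of the Hox clusters with 50 UMIs, Hoxa11os was higher and 5 were lower, with Hoxaas3 at 0.277, Hoxb5os at 0.396, Haglr at 0.434, Hoxaas2 at 0.449 and Hotairm1 at 0.482, while Hoxb3os and Hoxd3os1 did not pass, at 0.639 and 0.874. Hoxb5os overlaps the scoring gene Hoxb5 and also Hoxb6 in RefSeq. The spans of Hoxaas3 and Hoxa3 there contain that of the scoring gene Hoxa5. The part of shared reads in these ratios was not tested. Without the 4 neural regions Hoxb2, Hoxb3, Hoxb4 and Hoxd3 were at 0.540, 0.651, 0.532 and 0.659, none of them 2-fold lower, whereas Hoxc4 and Hoxd1 were at 0.367 and 0.269.

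Ratios of sums were also visible spot by spot. Hoxd9 was detected in 291 of 399 posterior spots, with a median of 61.5 CPM and a highest value of 725 CPM, and in 27 of 315 anterior spots, with a median of 0 and a highest value of 209 CPM. The ranges overlapped, since spots without a UMI occurred in both sets. After thinning every spot to 5000 UMIs, Hoxd9 was detected in 35.6% of posterior spots (exact 95% interval 30.9 to 40.5) and 1.90% of anterior spots (0.702 to 4.10). Hoxa11 was detected in 9.52% of posterior spots, and in 0 of 315 anterior spots, which allows a share of up to 1.16%. These limits treat the spots of this section as independent draws and hold no spread between embryos. Hoxc8 was detected in 4.76% of posterior and 32.7% of anterior spots, Hoxc6 in 7.27% and 39.7%, and Hoxb8 in 12.3% and 36.8%.

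**Figure D2:**
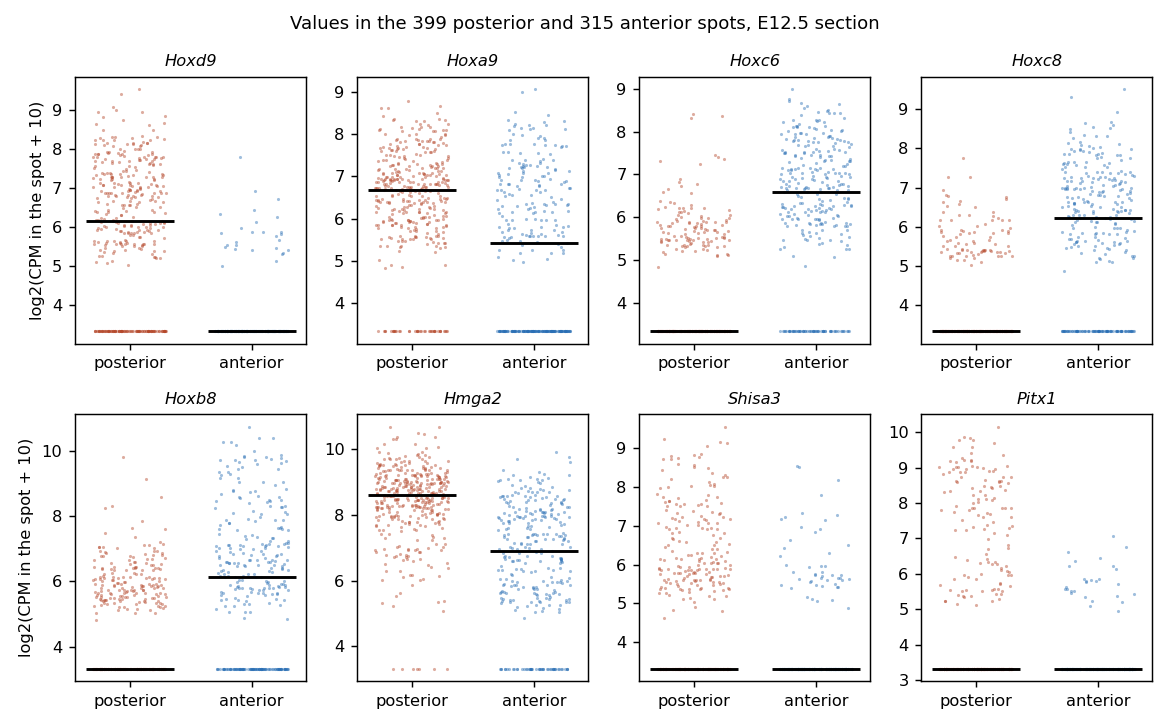
Points are single spots of the E12.5 section, with the posterior spots on the left and the anterior spots on the right of each panel, and bars are medians of log2(CPM + 10). Hoxd9 and Hmga2 had higher medians in posterior spots, Hoxc6, Hoxc8 and Hoxb8 in anterior spots, while Shisa3 and Pitx1 had medians of 0 CPM in both sets.

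Within the posterior set, spots were ranked by their CPM of the 10-group genes and split into 3 groups of 133. Hoxd9 stood at 55.1, 82.1 and 155 CPM from the lowest to the highest group, and Hoxd11 at 16.5, 33.2 and 55.3 CPM. Hoxa11 stood at 10.2, 26.1 and 29.4 CPM. Hoxc11 was highest in the middle group, at 10.4, 29.8 and 20.5 CPM. Hoxc9 stood at 70.2, 45.5 and 40.1 CPM and Hoxc8 was at 13.7 CPM in the lowest group and 7.95 CPM in the highest. Not every Hox gene rose or fell in order, with Hoxa9 at 103, 91.8 and 116 CPM and Hoxb8 at 36.5, 28.1 and 32.1 CPM. These groups come from the scoring genes and share spots with the sets, so the order is a description.

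Genes that are not Hox genes also separated the sets. Of the 12 with the largest posterior ratio, 7 lay outside the Hox clusters, and these were Crh, Rxfp2, Pitx1, Foxf1, Fendrr, Saa2 and T. Pitx1, a homeobox factor of hindlimb and hindquarter mesenchyme, stood at 79.2 CPM in posterior and 4.49 CPM in anterior spots (ratio 17.6, 12.7 to 25.2). Crh, corticotropin-releasing hormone, stood at 31.4 and 0.728 CPM (43.2, 19.6 to 119), and Rxfp2, a receptor for an insulin-like peptide, had 108 and 2 UMIs (ratio 42.7). Foxf1, a forkhead factor of mesenchyme, stood at 24.2 and 1.58 CPM (15.3, 8.80 to 29.2), and the divergently transcribed noncoding gene Fendrr beside it had a ratio of 14.1. T, the brachyury gene of notochord and tail bud, stood at 17.9 and 1.58 CPM (11.4, 6.49 to 21.7).

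The UMIs of these genes were followed by region. Clustering the spots of the E12.5 section without any Hox gene gave 17 regions. Genes outside the Hox clusters were free to shape the regions, which are named by their leading genes. A high share of Pitx1, Crh or T in a region that it leads thus follows in part from how the regions were made. Regions led by Pitx1, Shox2 and Dmrt2 and by Pitx1, Wt1 and Fbln5 held 68 and 31 posterior spots, against 0 and 3 anterior spots, and gave 48.1% and 40.3% of the Pitx1 UMIs of the posterior set. A region led by Crh, Cxcl13 and Tbx1, with 51 posterior and 6 anterior spots, gave 60.1% of the posterior Crh UMIs. A region led by Pax1, with 49 and 12 spots, gave 48.4% of Foxf1, and a region led by Scin, T and Epyc, with 11 and 2 spots, gave 47.6% of T. Rxfp2 and Saa2 were spread more widely. Their largest shares were 28.7% of posterior Rxfp2 UMIs, in a region led by Adamts18, Ecm1 and Wt1, and 34.4% of Saa2, in the Pax1 region. Anterior spots were the majority in regions led by Egfl6, Ptx3 and Tbx15 (10 posterior and 69 anterior spots), by the spinal cord genes Npy, Skor1 and Lhx5 (1 and 36), by Fgf15, Hopx and Rfx4 (6 and 23), and by the epidermal keratins Krt5 and Krt14 (13 and 28). A region led by Cldn11, Lars2 and Malat1 held 0 posterior and 28 anterior spots. The sets thus differed in tissue as well as in Hox content, and over all spots the 2 cannot be told apart.

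Hox levels were not even over these regions. Hoxd9 stood at 21.8 and 29.4 CPM in posterior spots of the regions led by Pitx1, Shox2 and Dmrt2 and by Pitx1, Wt1 and Fbln5, against 195 CPM in those of the Pax1 region and 110 CPM in those of the Crh region. In a region led by Adamts18, Ecm1 and Wt1 the order was turned round, with 32.8 CPM in 21 posterior spots (21 UMIs) and 66.4 CPM in 7 anterior spots (10 UMIs). These 7 spots gave 28.6% of the Hoxd9 UMIs of the whole anterior set.

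**Figure D3:**
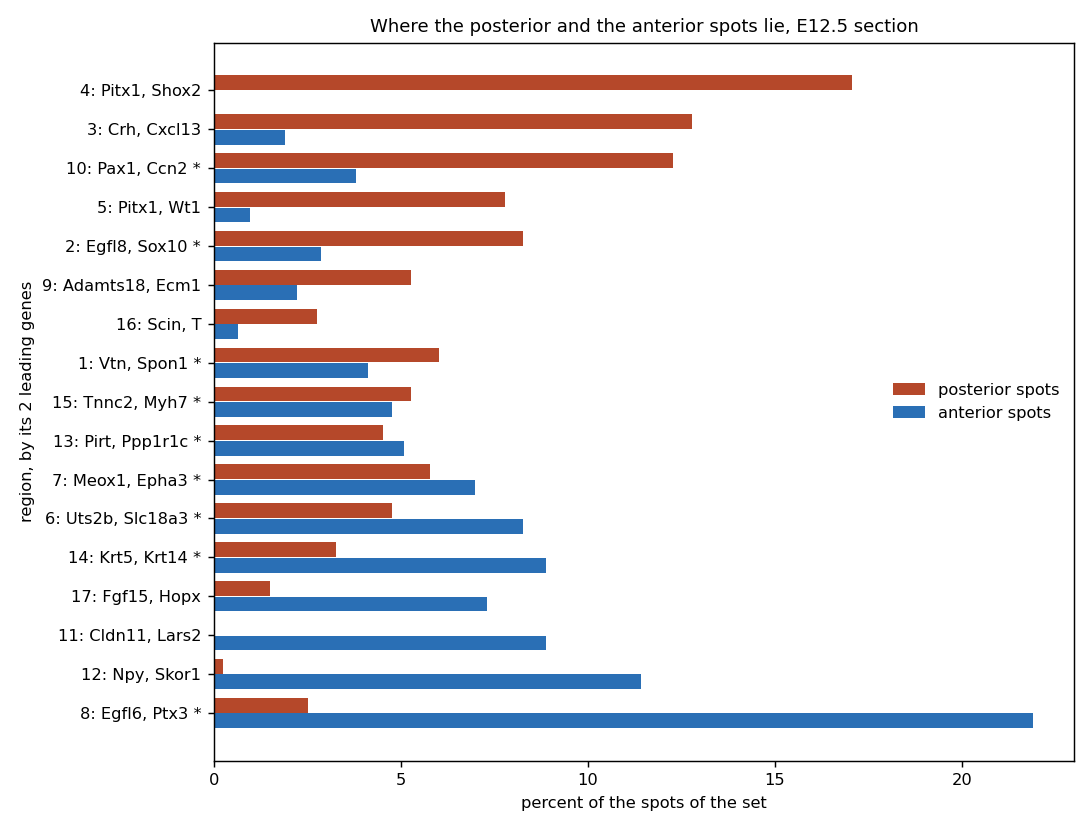
Bars give the percent of the 399 posterior spots (upper bar) and of the 315 anterior spots (lower bar) in each of 17 regions of the E12.5 section, named by number and 2 leading genes, with asterisks for the 9 regions holding at least 8 spots of both sets. The region led by Pitx1, Shox2 and Dmrt2 held 17.0% of posterior and 0% of anterior spots, and the region led by Egfl6 held 2.51% and 21.9%.

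Gene lists of tissues were counted over their members with at least 50 UMIs, beside shares over all genes of 1.63% higher and 5.24% lower. Sclerotome genes, which mark the mesenchyme that forms vertebrae and discs, were at least 2-fold higher in posterior spots for 5 of 7 members, with a median log2 ratio of 1.53. Pax1 stood at 184 CPM in posterior and 54.1 CPM in anterior spots (ratio 3.41), Meox1 at 67.4 and 19.9 CPM (3.39) and Pax9 at 40.3 and 12.2 CPM (3.29). Uncx, a factor of sclerotome, did not pass, at 36.8 and 56.3 CPM (0.654). Cartilage matrix genes were higher for 7 of 18 and lower for 0, with Col2a1, the main cartilage collagen, at 1400 and 613 CPM (2.28) and Acan, the aggrecan core protein, at 46.5 and 17.5 CPM (2.66). Of 16 skeletal muscle genes 7 were higher and 2 lower. The higher ones included Myh3 and Mylpf, a myosin heavy chain and a light chain of embryonic muscle, with ratios of 2.10 and 2.16, while Pax3 and Pax7, factors of muscle and dorsal neural progenitors, had ratios of 0.120 and 0.351.

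The next 3 lists stand beside the same shares over all genes, 1.63% higher and 5.24% lower. Notochord genes were higher for 5 of 8, among them Shh (24.9 and 8.73 CPM, 2.85) and Foxa1 (14 and 3.03 CPM, 4.62). They were lower for 1, Foxa2 (1.82 and 4.73 CPM, 0.385). In the other sections this list had 0 higher, with 2 of 7 lower at E11.5 and 7 of 8 lower at E13.5. In the hedgehog list 2 of 10 were higher, the target gene Gli1 at 52.3 and 16 CPM (3.27) and the pathway's decoy receptor Hhip at 7.09 and 3.03 CPM (2.34), whereas the receptor Ptch1 did not pass (75 and 47.8 CPM, 1.57). In the limb bud list 4 of 10 were higher, Hand2, Shox2, Asb4 and Emx2, with ratios of 3.07, 2.37, 2.6 and 4.12, and Lmx1b, a factor of dorsal limb mesenchyme, was lower (0.270). The limb identity factors had few UMIs: hindlimb Tbx4 had 37 in posterior and 3 in anterior spots (ratio 9.75, 3.09 to 49.4), and forelimb Tbx5 had 2 and 15 (0.105, 0.0117 to 0.453).

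**Figure D4:**
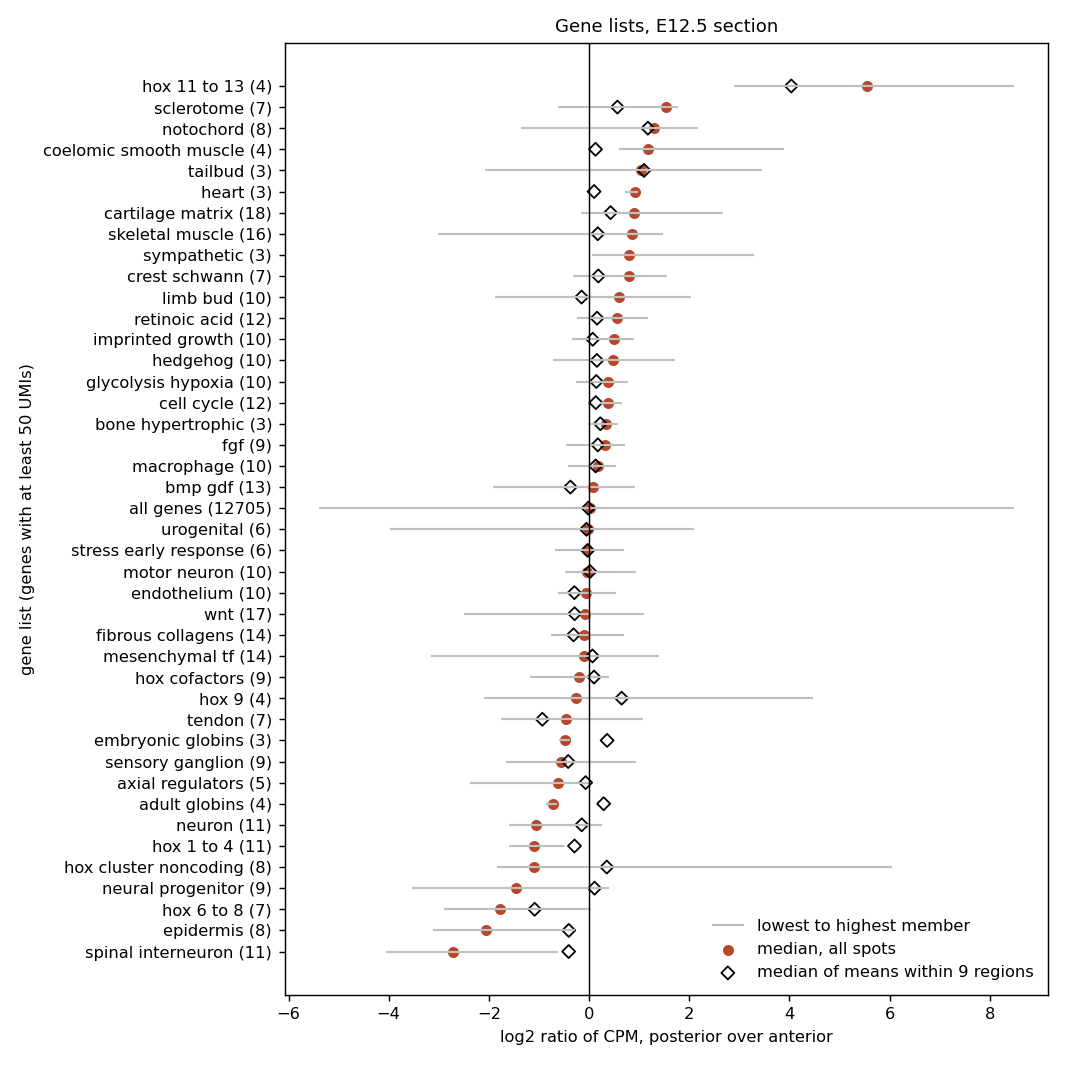
Points are the median log2 ratio of CPM, posterior over anterior, of each gene list at E12.5, lines run from the lowest to the highest member, and diamonds give the median of the means within 9 regions. The lists of spinal interneuron and epidermis genes had all-spot medians of -2.71 and -2.05 and within-region medians of -0.41 and -0.41, while Hox groups 11 to 13 stood at 5.56 and 4.04.

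Several lists of neural genes were lower in posterior spots. Spinal interneuron genes were lower for 10 of 11 with a median log2 ratio of -2.71, and the summed level of the list was 62.0 CPM in posterior and 245 CPM in anterior spots. Gad2, an enzyme of GABA synthesis, stood at 2.11 and 35.7 CPM (0.0591), and Npy, a neuropeptide, at 13.2 and 172 CPM (0.0770). Neural progenitor genes were lower for 6 of 9, and general neuron genes for 6 of 11, with a summed level of 1872 and 2914 CPM. Motor neuron genes were past 2-fold for 0 of 10, with a median of -0.05, beside 6.87% past 2-fold over all genes. Epidermis genes were lower for 7 of 8, with Krt14 at 2.88 and 25.3 CPM (0.113). Without the 4 regions led by Uts2b, Npy, Pirt and Fgf15, 250 of 11993 genes were at least 2-fold lower, in place of 666 of 12705. In that setting 149 genes were at least 2-fold higher, in place of 207. Endothelial and macrophage genes were past 2-fold for 0 of 10 each, and cell cycle genes for 0 of 12, counts that this share over all genes does not set apart.

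Mesenchyme and connective tissue genes were divided, beside shares over all genes of 1.63% higher and 5.24% lower. Of 14 mesenchymal transcription factor genes 1 was higher, Foxd1 at 160 CPM in posterior and 60.3 CPM in anterior spots (ratio 2.65), and 4 were lower, among them Msx1 at 1.82 and 16.6 CPM (0.11) and Msx2 (0.129). Of 17 Wnt pathway genes 1 was higher, the potentiator Rspo2 (2.16), and 5 were lower, among them the ligand Wnt6 at 5.85 and 33.3 CPM (0.175). In the tendon list Scx, the tendon progenitor factor, was higher at 108 and 51.3 CPM (2.11), while C1qtnf3, Tnmd and Egfl6 were lower at 0.333, 0.293 and 0.487. In the urogenital list 1 of 6 was higher and 1 lower. The higher gene was Wt1, a factor of the urogenital ridge and other coelomic tissue, at 34.5 and 8 CPM (4.31). In the sympathetic list 1 of 3 was higher and 0 lower. This was Dbh, the noradrenaline enzyme of sympathetic cells, at 11.3 and 1.09 CPM (10.4).

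Regulators of the Hox system were counted in the same way. Among 9 cofactor genes, whose products bind DNA together with Hox proteins, 1 was past 2-fold, Pbx3 at 35.8 CPM in posterior and 80.8 CPM in anterior spots (0.444). The shares over all genes were 1.63% higher and 5.24% lower, 6.87% together, which does not set this count apart. Meis1 had a ratio of 1.16. Of 5 axial regulators with 50 UMIs, 0 were higher and 2 lower, the zinc finger genes Sall1 at 10.3 and 26.9 CPM (0.381) and Sall3 at 7.09 and 37.2 CPM (0.19). Lin28b, an RNA-binding protein of embryonic cells, had a ratio of 1.01. Gdf11, a growth factor that sets the position of the trunk-to-tail transition, stood at 30.6 and 39 CPM (0.783, 0.668 to 0.917). Cdx2, an upstream activator of Hox genes in the tail bud, had 0 UMIs in both sets. Of 3 tail bud genes with 50 UMIs, T and Greb1 were higher (11.4 and 2.05) and Sp5, a Wnt target, was lower, with 12 and 41 UMIs (0.231). Of 12 retinoic acid genes 2 were higher, the synthesis enzyme Aldh1a3 (2.28) and the breakdown enzyme Cyp26b1 (2.09).

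To hold tissue more nearly constant, posterior and anterior spots were compared inside the 9 regions that had at least 8 of each, 210 posterior and 210 anterior spots, and the log2 ratios of the regions were averaged. Of 10370 genes with at least 100 UMIs there, 32 (0.309%) averaged at least 2-fold higher and 56 (0.54%) at least 2-fold lower. Among the Hox genes with that many UMIs, 3 of 3 genes of groups 11 to 13 and 2 of 4 of the 9-group were higher, and 4 of 7 of groups 6 to 8 were lower, whereas 0 of 8 of groups 1 to 4 passed. Regions are parts of 1 section and are not replicates.

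Hoxd9 was higher in posterior spots in each of the 9 regions, with 734 UMIs in posterior and 21 in anterior spots summed over them. In the Pax1 region it stood at 195 CPM (204 UMIs) in posterior spots, against 0 UMIs in anterior spots. In the region led by Meox1, Epha3 and Ebf2 it stood at 231 and 4.00 CPM, in the region led by Uts2b and the acetylcholine transporter gene Slc18a3 at 63.5 and 5.11 CPM, and in the region led by Krt5 and Krt14 at 97.9 and 2.90 CPM. Regions led by sclerotome, motor neuron and keratin genes thus all showed the difference. Hoxa11 had 153 and 0 UMIs and Hoxd11 had 206 and 7 UMIs over these regions, each higher in 9 of 9. Hoxc11 (134 and 2 UMIs) and Hoxa11os (222 and 3 UMIs) were higher in 8 of 9.

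Hoxc8 and Hoxc6 were lower in posterior spots in 9 of 9 regions, with mean log2 ratios of -2.72 and -2.01. Hoxc8 stood at 4.77 CPM in posterior and 114 CPM in anterior spots of the Pax1 region, at 19.4 and 214 CPM in the Meox1 region and at 13 and 84.8 CPM in the Uts2b region. Its smallest difference was in the Krt5 region, at 31.5 and 44.9 CPM. Hoxb8 and Hoxb6 were also lower in 9 of 9, with means of -1.09 and -0.66, and Hoxa7 in 8 of 9, with a mean of -1.50.

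Hoxa9, Hoxb9 and Hoxc9 differed from region to region. In the Uts2b region Hoxc9 stood at 29.3 CPM in posterior and 274 CPM in anterior spots, and Hoxa9 at 86.3 and 141 CPM. In the region led by Egfl6, Ptx3 and Tbx15 the order was turned round, with Hoxc9 at 103 and 16.7 CPM and Hoxa9 at 199 and 8.33 CPM. Hoxc9 was lower in 6 regions and higher in 3, as was Hoxb9, and Hoxa9 was higher in 7 and lower in 2.

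**Figure D5:**
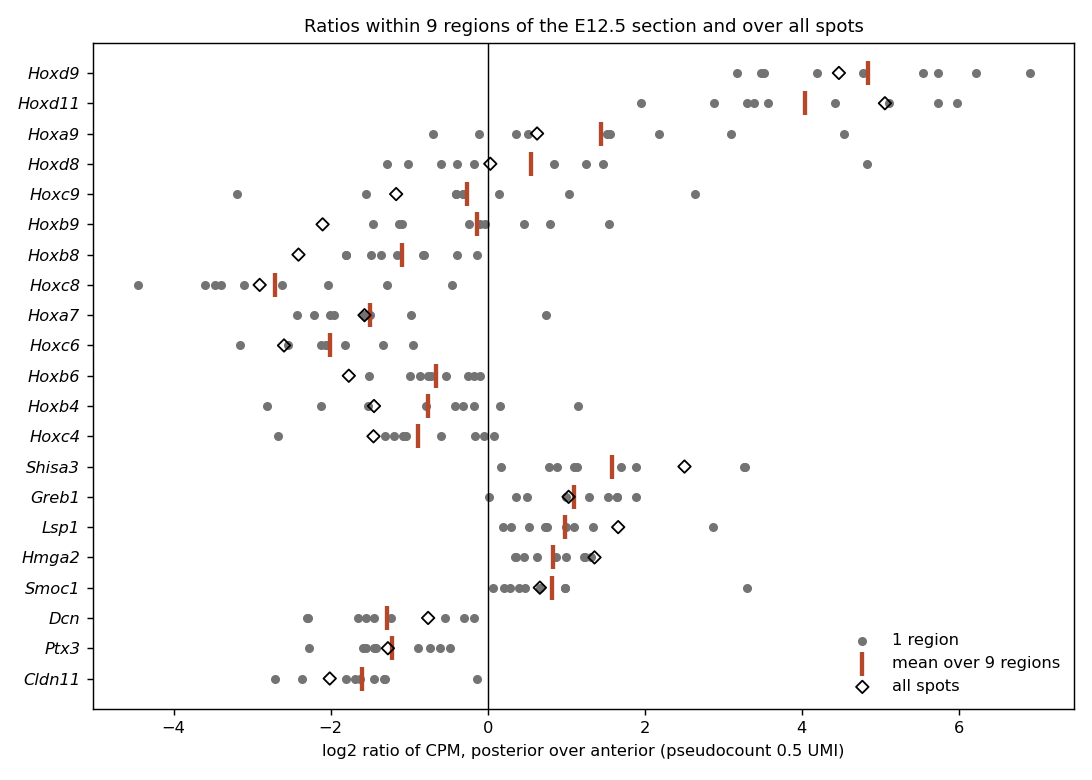
Grey points are log2 ratios of CPM, posterior over anterior, in each of 9 regions of the E12.5 section, bars their mean, and open diamonds the ratio over all spots. Hoxd9 and Hoxd11 lie above 0 and Hoxc8, Hoxc6, Hoxb8 and Hoxb6 below 0 in all 9 regions, while Hoxa9, Hoxb9, Hoxc9 and Hoxd8 lie on both sides.

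Outside the clusters, 9 genes were named from those with 1 direction in all 9 regions, by the size of their mean, so that their even direction is part of the choice; all 9 were higher in posterior spots. Shisa3, an antagonist of Wnt and FGF receptors, averaged a log2 ratio of 1.58, with 62.3 and 10.9 CPM over all spots. Greb1, an oestrogen-responsive gene, averaged 1.10, and Lsp1, an actin-binding protein, averaged 0.98. Hmga2, a chromatin protein of growing embryonic tissue, averaged 0.83 with a range of 0.35 to 1.31. Hmga2 was also the most abundant of them, at 384 CPM in posterior and 150 CPM in anterior spots (2.57, 2.41 to 2.74), and was detected after thinning in 78.9% and 47.9% of spots. Znrd1as, Smoc1, Dera, Fap and Ada averaged between 0.63 and 1.08. The genes named in the same way for lower values in posterior spots included the claudin gene Cldn11 (mean -1.60), the small proteoglycan gene Dcn (-1.28) and the pentraxin gene Ptx3 (-1.22), with Prrxl1, Adcyap1r1, Cntn2, Cacng4, Gxylt2 and Lmna between -1.37 and -0.96.

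Some of the large differences over all spots could be followed inside regions and others could not. Pitx1 had 31 UMIs in posterior and 29 in anterior spots of the 9 regions, under the limit of 100 UMIs for the counts within regions. Its mean log2 ratio was 0.51, with 5 regions higher and 4 lower, and rested in part on 1 region with 13 and 0 UMIs. Crh had 11 and 3 UMIs over the 9 regions. Foxf1 had 170 and 11 UMIs and was higher in 7 regions, with 0 UMIs on either side in the other 2. Pax1 had 1250 and 305 UMIs, a mean of 1.62, and was higher in 8 of 9, whereas Meox1 averaged 0.49 and Col2a1 0.55. The spinal interneuron list had a within-region median of -0.41 over 5 genes and the epidermis list -0.41 over 6. Over all spots the medians were -2.71 over 11 genes and -2.05 over 8, so the genes compared were not the same.

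The same rule was applied to the other stages, which gave 138 posterior and 439 anterior spots at E11.5 and 469 and 134 at E13.5. Their anterior sets held other tissues. At E11.5 heart genes had a median log2 ratio of -3.22, and at E13.5 lung and gut epithelium genes had one of -5.37, with summed levels of 13.3 CPM in posterior and 424 CPM in anterior spots. Over all genes with 50 UMIs, 138 of 12127 (1.14%) were at least 2-fold higher and 632 (5.21%) lower at E11.5, 6.35% together, and 627 of 12377 (5.07%) higher and 287 (2.32%) lower at E13.5, 7.38% together. Of the 207 genes higher at E12.5, 145 had 50 UMIs at E11.5, where 52 were at least 2-fold higher and 22 at least 2-fold lower, and 178 had them at E13.5, where 58 were higher and 22 lower. Of the 666 lower genes, 281 of 576 were at least 2-fold lower at E11.5 and 3 higher, but at E13.5 41 of 360 were lower and 101 higher. In every section 24 genes were at least 2-fold higher, among them Hoxd9, Hoxd11, Hoxc11, Hoxa11os, Pitx1, Meox1, Scx, Emx2 and Shisa3. In every section 13 were at least 2-fold lower, among them Hoxb4 and the Hox-cluster noncoding genes Hotairm1, Hoxaas2 and Hoxaas3. Hoxaas3 spans the scoring gene Hoxa5 in RefSeq.

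Hoxd9 and Hoxb4 had nearly the same ratio at every stage. Hoxd9 stood at 85.9 CPM in posterior and 4.20 CPM in anterior spots at E11.5, 95.5 and 4.24 CPM at E12.5, and 48.7 and 2.50 CPM at E13.5, ratios of 20.4, 22.5 and 19.5. Hoxa11 had 0 UMIs in anterior spots of all 3 sections, against 8.98, 21.6 and 10.7 CPM in posterior spots. Hoxb4 had ratios of 0.358, 0.365 and 0.353 in stage order. Hoxd11 stood at 15.1 CPM in posterior spots with 0 UMIs in anterior spots at E11.5, 34.3 and 0.97 CPM at E12.5, and 16.2 and 0.278 CPM at E13.5. Hoxa11os stood at 24.7 and 0.274 CPM at E11.5, 27.9 and 0.364 CPM at E12.5, and at 15.5 CPM in posterior spots with 0 UMIs in anterior spots at E13.5. Paralogue groups 6 to 8 differed more between stages, with list medians of -0.86, -1.77 and 0.03 on the log2 scale. Hoxc6 had ratios of 0.55, 0.165 and 1.03. Hoxb9 and Hoxc9 also varied, Hoxb9 at 0.501, 0.232 and 6.9 and Hoxc9 at 1.25, 0.445 and 2.98. Pitx1 stood at 94.1 and 6.67 CPM at E11.5, 79.2 and 4.49 CPM at E12.5 and 16.9 and 1.95 CPM at E13.5, and Hmga2 had ratios of 2.75, 2.57 and 1.29.

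With the 3 sections as replicates and the section as a block, the quasi-likelihood test of edgeR, adjusted after Benjamini and Hochberg over 14330 genes, called 3 genes higher (0.0209%) and 0 lower (0%), and 1103 genes had an unadjusted p under 0.05. Hoxd9 had a log2 fold change of 4.37, adjusted p 0.00418 by edgeR, and section log2 ratios of 4.34 ± 0.13 (SD, n = 3 sections). Hoxa11os had one of 6.47, adjusted p 0.0345 by edgeR, and 6.37 ± 0.39, and Pitx1 one of 3.83, adjusted p 0.0345 by edgeR, and 3.65 ± 0.57. Each was higher in 3 of 3 sections. Hoxc11, Hoxd11, Hoxa11, Hoxb2 and Hoxb4 had one direction in all 3 sections and did not pass, with adjusted p between 0.186 and 0.199 by edgeR. The sections are of different stages and each set holds its own tissues, and the counts changed with the section left out: without E11.5 or without E12.5 the number of genes higher was 0, and without E13.5 it was 265, with 654 lower. Without the block 0 genes passed in either direction. DESeq2 called 66 genes higher and 57 lower.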

How the data were processed

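The data are raw UMI counts per gene and spot (32285 genes) deposited by the authors for 3 mouse sections, and the file headers name Space Ranger 1.2.0. The submitters' processing notes list mm10 and STAR. The STAR version, annotation release and strand setting were not given in the sources used here. Stages come from the titles. Spot positions and images were not used here, and the values of a few genes are not reported here.

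Spots with at least 5000 UMIs entered. UMIs were summed per set and scaled to CPM, with an exact conditional binomial 95% interval for the ratio that covers counting error only. A side with 0 UMIs was set at 3 UMIs, and log2 ratios add 0.5 UMI to both sums. Regions were Leiden clusters (resolution 1.0, 2000 variable genes without Hox genes and the noncoding genes of their clusters, 30 components, 15 neighbours), each named by its leading genes. Tables are by gene symbol of the files. The 3 sections were fitted with edgeR (filterByExpr, TMM, section as block). Both sets of a section come from 1 embryo slice, and the deviations of its sums correlated at 0.715, 0.508 and 0.711 for E11.5, E12.5 and E13.5. Nothing in the labels gives separate animals beyond the sections.

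Named genes were, without the scoring, globin, mitochondrial, ribosomal, sex-linked marker, predicted and duplicated ones, up to 12 per direction with the largest ratio (at least 100 UMIs), up to 12 with the largest mean within regions and 1 direction in each, those passing the 3-section test, and members of the 45 lists. The alternatives without the region led by Cldn11, without 4 neural regions and with a pseudocount equal in CPM were chosen after seeing the data. A region with 0 UMIs on both sides counts as having no direction. The members and lists were chosen with earlier results of these data known. Spots were thinned at random to 5000 UMIs for shares. Methods were tested on simulated data. Versions were edgeR 4.0.16, limma 3.58.1 and DESeq2 1.42.0 in R 4.3.3, and scanpy 1.11.5, scipy 1.17.1, igraph 0.11.9, pandas 2.3.3, matplotlib 3.10.9 and numpy 2.4.6 in Python 3.11.15.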

Additional observations from a re-analysis of the deposited data

Results flagged for a closer look

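Several genes were past 2-fold in opposite directions, posterior over anterior, in 2 sections, and the difference between sections was not tested. Foxf1 had a ratio of 15.3 at E12.5, against 0.4997 at E11.5 and 0.0725 at E13.5, and the neighbouring Fendrr 14.1 at E12.5 and 0.114 at E13.5. T had 11.4 at E12.5, 0.161 at E11.5 and 0.352 at E13.5. Hoxb9 had 0.232 at E12.5 and 6.90 at E13.5, Hoxb8 0.188 and 2.06, Hoxc9 0.445 and 2.98, and Hoxd3 0.468 and 2.44. Genes of neurons turned the same way, with Cntn2 at 0.314 and 15.9, Prrxl1 at 0.319 and 16.1, and Tac1 at 0.0555 and 17.1. Their E13.5 ratios rest on few anterior UMIs, at 1.39, 0.278 and 0.278 CPM. They had 256, 52 and 55 UMIs over both sets of that section. Cldn11 had 0.247 at E12.5 and 5.91 at E13.5. The lists of neuron genes had medians of -1.05 at E12.5 and 1.03 at E13.5, and the list of coelomic and smooth muscle genes 1.18 and -3.79, on the log2 scale. The part of these tissues in the gene values was not tested.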

How the results depend on the processing

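At E12.5 the 207 genes higher and 666 lower stayed within 1.5 times under posterior limits of 2 or 5 UMIs, 10000 UMIs per spot, means over spots, TMM scaling, and without the region led by Cldn11, the last chosen after seeing the data. The number higher was 340 with an anterior limit of 5 UMIs, 335 at 20 UMIs per gene and 92 at 200 UMIs, where 324 were lower. It was 135 when spots were chosen after thinning to 5000 UMIs, with limits of 1 UMI in place of 3. That choice gave 382 posterior and 323 anterior spots. Pooling the 9 regions gave 106 and 273. Without 4 neural regions, also chosen after seeing the data, 250 of 11993 genes were lower. Lower genes were then 62.7% of those past 2-fold in place of 76.3%. The Hox counts were 5 and 14 with a posterior limit of 5 UMIs and with means over spots, and 5 and 5 without the neural regions. Of 768 single-gene ratios under alternatives, 633 were labelled inside the main interval, 134 outside and 1 turned in direction. The last was Hoxc9 at 1.06 without the neural regions. A turn of direction was counted only for genes past 2-fold in the main comparison. Within regions the counts were 28 to 48 higher and 48 to 81 lower, the last with a pseudocount equal in CPM, added after seeing the data. The 3-section fit called 3 higher and 0 lower with RLE factors and at 10000 UMIs, 19 and 15 with no filter on low counts, 66 and 57 with DESeq2, and 0 and 0 with no replicate block. Leaving out 1 section gave 0 to 265 higher and 0 to 654 lower; the causes were not tested. Genes under 50 UMIs, such as Tbx5, are limited by depth.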
